A study of Mus musculus with 14 samples.

Results

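The genes described here control the passage from the G1 phase of the cell cycle into DNA replication: the D-type cyclins Ccnd1, Ccnd2 and Ccnd3, the E-type cyclins Ccne1 and Ccne2, the kinases Cdk4 and Cdk6, the retinoblastoma gene Rb1, and the kinase inhibitors Cdkn2a and Cdkn2b. They were chosen by symbol, and 10 of 10 were found among 55433 genes in the RNA table and among 22470 gene bodies in the chromatin table. All 10 passed the filter on low values, a mean of at least 8 normalized counts, in a test of 18263 genes. A normalized count is the read count of a gene divided by the size factor of its library.

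The cells were grown from a tumor of the C57BL/6 mouse strain and used at passages 6 to 8. One condition carried the control guide RNA, named sgControl, and the other a guide RNA named sgNSD3, whose target Nsd3 encodes a histone H3 lysine 36 methyltransferase. Total RNA was sequenced from 3 samples per condition. Chromatin was profiled with antibodies to H3K36me2, a mark made by this class of enzymes, in 4 samples and to H3K27me3, the mark of Polycomb repression, in 2 samples, beside 2 IgG samples. The kind of tumor, the way the guides were delivered, and whether a condition was 1 clone or a mixed population are not given in the sources used here. The labels do not tell whether the 3 RNA samples per condition were separate cultures, so the p-values speak only of the spread among these samples, which may be technical.

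Cyclin D binds CDK4 or CDK6, and the complex phosphorylates the retinoblastoma protein, which otherwise holds E2F transcription factors inactive. Free E2F switches on cyclin E and the genes of DNA synthesis, and cyclin E with CDK2 completes the phosphorylation. The INK4 inhibitors p16 (from Cdkn2a) and p15 (from Cdkn2b) bind CDK4 and CDK6 and keep cyclin D from activating them. Cdkn2a also encodes ARF, which stabilises p53, from a separate first exon. Cyclin D genes are among the best known targets of growth factor signals, and tumors often gain cyclin D or CDK4 or lose Cdkn2a or Rb1.

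Nsd3 itself was higher in the libraries labelled sgNSD3, at 21989, 22012 and 21837 normalized counts against 14568, 14402 and 14675 in sgControl, a 1.51-fold difference (limma adjusted p = 5.86e-14). Gene-level RNA does not show whether a guide disrupted the protein, so every direction below rests on the labels. Library totals ran from 20294828 to 21863833 counts, with neither condition deeper throughout. Pairs of libraries were compared by a chi-square of their gene counts, which per degree of freedom came to 1.3 to 1.41 within sgNSD3 and 6.69 to 7.77 between conditions. In sgControl it was 2.74 for replicates 2 and 3, but 6.45 and 9.7 for replicate 1 against them, so sgControl replicate 1 stood apart, and the calls of the genes named below are given without it as well. Every pair differed by more than counting error, which does not show that the samples were separate cultures. Each library was counted as 1 sample. The labels name no cell type beyond tumor-derived cells. The fibroblast marker list was high in every library (summed level 748788 to 847428 normalized counts in sgControl and 817023 to 822828 in sgNSD3), mostly Col1a1 and Col1a2. Of its 9 markers 8 passed the filter (Lum did not), 3 were called higher (Col1a1, Pdgfrb and Thy1) and 1 lower (Pdgfra). Of 8 epithelial markers 4 passed the filter, Epcam was at 0 in every library, and the summed level, mostly Krt19, was 4264 to 4826 in sgControl and 3072 to 3103 in sgNSD3. Krt14, Krt18 and Krt19 were called lower. The leukocyte list (2 of 7 past the filter, Cd3e and Adgre1 at 0) summed to 89.8 to 107 and 72.9 to 82.1 normalized counts. The endothelial list (2 of 5 past it, Emcn at 0) summed to 120 to 144 and 197 to 237, mostly Kdr, which was called higher. Of all tested genes 5.44% were called higher and 6.44% lower (limma adjusted p under 0.05). The part of these markers in the results below was not tested. In bulk RNA, fewer cells of a type and less RNA per cell cannot be told apart.

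Promoters in the RefSeq table of the GRCm38.p6 build (mm10) matched 6 of the 10 genes, with 8 start sites in all. Ccnd1, Ccnd2, Ccne2 and Rb1 have no entry. The 250 bases before 4 of these starts follow, 5′ to 3′ on the strand of the gene. The Cdkn2a pair is shown because the gene has starts 12427 bases apart, one for ARF (upstream) and one for p16 (downstream), which a gene-level count adds together. Cdkn2b is shown as the inhibitor whose RNA was called, and Cdk4 for its repeated E-boxes. Capitals mark TTTCCCGC (an E2F motif), TGACGTCA (the cAMP response element) or CACGTG (the E-box bound by MYC and related factors).

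Cdkn2a upstream start (chr4:89294620-89294869, minus strand): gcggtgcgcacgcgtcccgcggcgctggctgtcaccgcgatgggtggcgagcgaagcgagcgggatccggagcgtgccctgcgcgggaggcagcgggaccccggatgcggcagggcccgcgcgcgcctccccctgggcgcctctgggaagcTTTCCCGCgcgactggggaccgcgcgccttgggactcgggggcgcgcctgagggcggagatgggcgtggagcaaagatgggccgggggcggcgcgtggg
Cdkn2a downstream start (chr4:89282193-89282442, minus strand): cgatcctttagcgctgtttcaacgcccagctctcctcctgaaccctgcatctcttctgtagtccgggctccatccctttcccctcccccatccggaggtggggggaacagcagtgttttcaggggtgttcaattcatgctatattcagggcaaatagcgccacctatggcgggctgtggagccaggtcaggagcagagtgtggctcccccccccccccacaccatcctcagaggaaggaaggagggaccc
Cdkn2b (chr4:89311033-89311282, minus strand): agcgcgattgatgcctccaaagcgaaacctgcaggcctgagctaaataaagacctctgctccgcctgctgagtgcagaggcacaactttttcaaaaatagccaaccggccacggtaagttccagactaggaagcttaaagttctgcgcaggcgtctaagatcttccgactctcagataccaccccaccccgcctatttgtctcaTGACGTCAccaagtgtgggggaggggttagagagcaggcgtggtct
Cdk4 (chr10:127063285-127063534, plus strand): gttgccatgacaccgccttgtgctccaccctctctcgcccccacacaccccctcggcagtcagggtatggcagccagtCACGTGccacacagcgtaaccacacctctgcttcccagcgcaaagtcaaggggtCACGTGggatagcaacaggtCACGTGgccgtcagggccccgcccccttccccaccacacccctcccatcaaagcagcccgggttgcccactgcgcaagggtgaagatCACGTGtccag

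These matches are descriptions of letters, not binding sites. The search covered both strands for the E2F motifs TTTCCCGC, TTTCGCGC, TTTGCCGC and TTTGGCGC, the AP-1 motifs TGACTCA and TGAGTCA, the cAMP response element and the E-box, and a palindrome was counted once. In the 8 windows no match overlapped another. An E2F motif was in 1 of the 8, 99 bases before the upstream Cdkn2a start, against 1.86% of 32851 windows of the same length over all genes. The cAMP response element was in 1 of 8, 46 bases before the Cdkn2b start (1.55% of all windows), and AP-1 in 0 of 8 (4.46%). Cdk4 held 4 E-boxes, 172, 118, 98 and 11 bases before its start, and Cdk6 held 1, 220 bases before its start. At least 1 E-box was in 6.02% of all windows, but 4 or more in only 7 windows, or 0.0213%. That cutoff was set at the number found in Cdk4, so the share is a description and not a test. The upstream Cdkn2a window was 78.4% G or C with 40 CpG pairs and the downstream window 60% with 7, where the median window had 52.4% and 6.

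Of the 10 genes 3 were called higher in the libraries labelled sgNSD3 (Ccnd1, Ccnd2 and Cdkn2b) and 0 lower, at a limma adjusted p under 0.05, where 5.44% of all tested genes were called higher and 6.44% lower (11.9% in all). A voom fit on the recovered counts also called 3 higher and 0 lower. Their median log2 fold was 0.06, against 0.00 over all tested genes. At an unadjusted limma p under 0.05 there were 5, Cdk4 and Cdk6 being the others, against 4516 of all 18263 tested genes. The conditions did not overlap for 4 of the 10, each higher in sgNSD3 (Ccnd1, Ccnd2, Cdk6 and Cdkn2b), against 28.5% of all tested genes (14% upward and 14.4% downward). The largest of these changes, in either direction, was 1.18-fold.

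**Figure D1:**
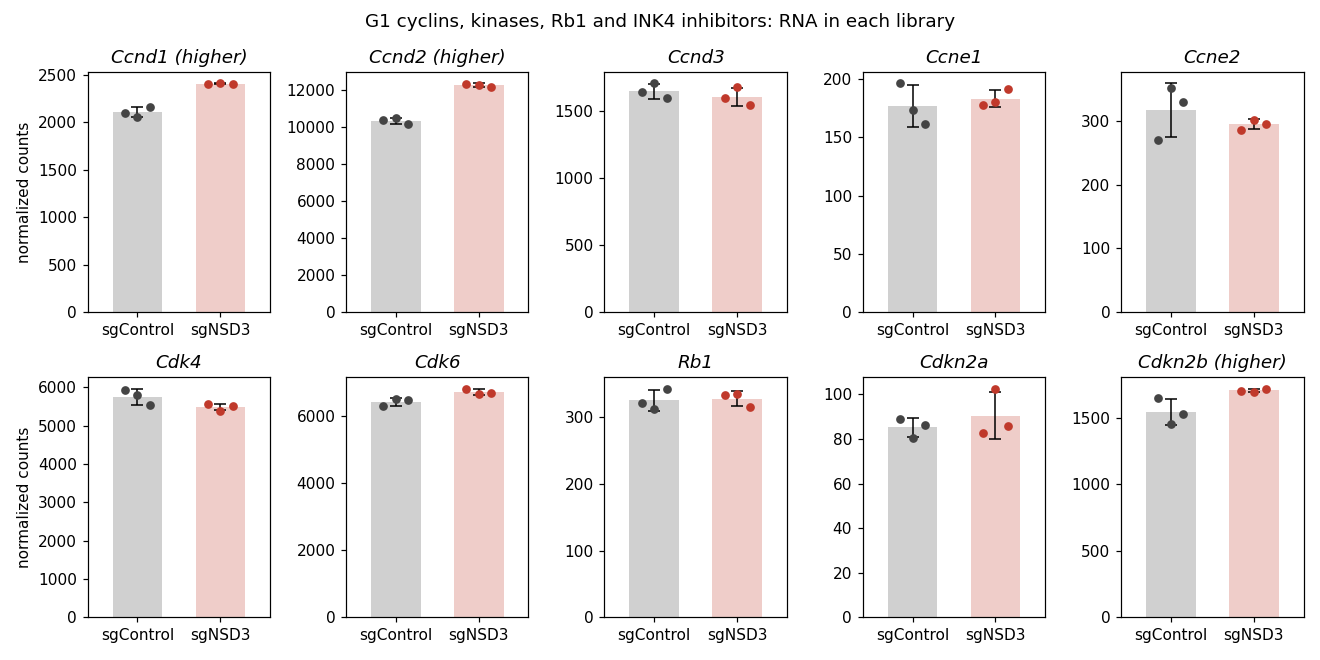
Normalized counts of each gene (vertical axis, from 0) in the 3 sgControl libraries (grey) and the 3 libraries labelled sgNSD3 (red); points are libraries, left to right replicates 1 to 3, bars the mean and error bars the SD. Ccnd1, Ccnd2, Cdk6 and Cdkn2b do not overlap between the conditions, and of these Ccnd1, Ccnd2 and Cdkn2b passed the test.

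Ccnd2 (chromosome 6, 127125162 to 127152188, mm10), the cyclin D2 gene, had 10367, 10507 and 10178 normalized counts in sgControl (replicates in the order 1, 2, 3, here and below) and 12349, 12290 and 12144 in sgNSD3. Every sgNSD3 library lay above every sgControl library. The means were 10351 ± 165 and 12261 ± 105 (SD, n = 3; limma adjusted p = 5.14e-07). This 1.18-fold rise had a 95% interval of 1.14 to 1.23 and a log2 fold of 0.24 ± 0.026 (SE). It ranked 86th of 18263 genes by p, and its adjusted p without sgControl replicate 1 was 1.57e-08. The long noncoding RNA gene 9330179D12Rik shares 2800 bases with the Ccnd2 span. It had means of 36.98 normalized counts in sgControl and 25.82 in sgNSD3 and was not called (limma adjusted p = 0.141).

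Ccnd1 (chromosome 7, 144929931 to 144939831), the cyclin D1 gene, had 2096, 2057 and 2164 normalized counts in sgControl and 2408, 2412 and 2406 in sgNSD3. The groups were well apart, and the 3 sgNSD3 libraries differed by an SD of only 0.142% of their mean, less than the 2.1% that counting error alone gives at this depth. The means were 2106 ± 53.8 and 2409 ± 3.41 (SD, n = 3; limma adjusted p = 0.000332). This is a 1.14-fold rise, with a 95% interval of 1.09 to 1.2 and a log2 fold of 0.19 ± 0.035 (SE). Without sgControl replicate 1 the adjusted p was 0.000245. The span of Ccnd1 shares 818 bases with LTO1, a gene of ribosome maturation that the table spells in capitals, whose RNA was also higher, 1.16-fold, from a mean of 946.3 to 1102 normalized counts (limma adjusted p = 0.00124). The labels give no strand setting for the counting, so reads from the shared bases cannot be assigned to either gene.

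Ccnd3 (chromosome 17, 47505051 to 47599689), the cyclin D3 gene, was not called. Its normalized counts were 1646, 1710 and 1599 in sgControl and 1604, 1681 and 1547 in sgNSD3, so the conditions overlapped. The fold was 0.975, with a 95% interval of 0.918 to 1.03 that excludes the 1.14-fold and 1.18-fold values of Ccnd1 and Ccnd2 (limma adjusted p = 0.641). Bysl, which shares 359 bases with the Ccnd3 span, was not called (fold 0.994, limma adjusted p = 0.936). Gm41590, which shares 7217 bases with it, has no RNA values.

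Within each library the ratio of Ccnd2 to Ccnd3 counts, which does not depend on the scaling of libraries, was 6.3, 6.14 and 6.36 in sgControl and 7.7, 7.31 and 7.85 in sgNSD3. The pair was chosen after the values were seen, so its ratios restate the counts given above and are no separate support. These ratios did not overlap, and their means differed 1.22-fold (two-sided exact permutation p = 0.1, the smallest that 3 against 3 can give, and 0.15 after Benjamini-Hochberg adjustment over 9 such ratios, shares and sums). By contrast the ratio of Ccnd1 to Ccnd2 overlapped, at 0.202, 0.196 and 0.213 in sgControl and 0.195, 0.196 and 0.198 in sgNSD3 (exact permutation p = 0.3, adjusted 0.386). Added up, the 3 D-type cyclins had 13941 to 14275 normalized counts in sgControl and 16098 to 16383 in sgNSD3, a 1.15-fold difference of the means (exact permutation p = 0.1, adjusted 0.15). Ccnd2 took 73.4% ± 0.32 of these counts in sgControl and 75.3% ± 0.26 in sgNSD3 (SD, n = 3; exact permutation p = 0.1). The share of Ccnd3 was 11.7% ± 0.26 and 9.89% ± 0.33 (exact permutation p = 0.1), and that of Ccnd1 14.9% ± 0.56 and 14.8% ± 0.13 (exact permutation p = 0.8). Counts were not scaled to transcript length, so these are shares of counts and not of molecules.

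**Figure D2:**
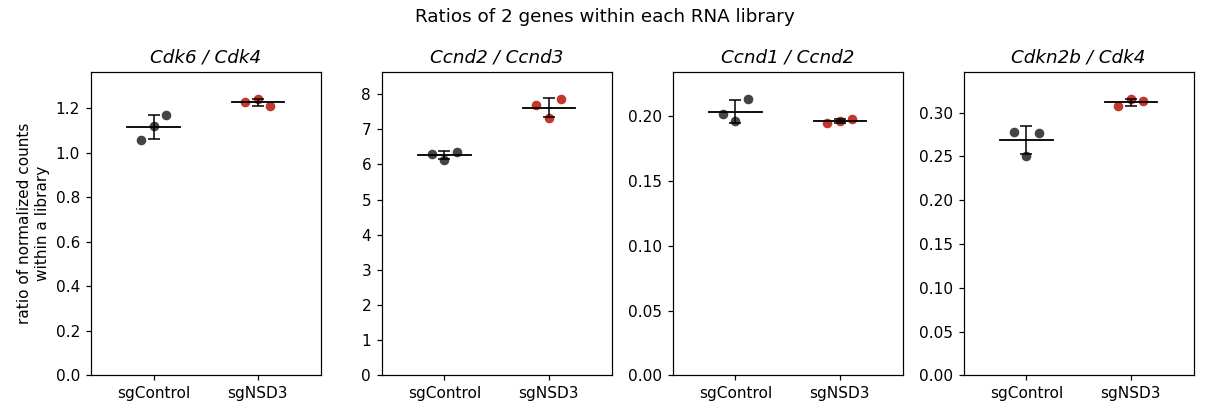
Ratio of the normalized counts of a pair of genes within each library (vertical axis, from 0), for the sgControl (grey) and sgNSD3 (red) libraries; horizontal lines are means and error bars SDs. The Cdk6 to Cdk4, Ccnd2 to Ccnd3 and Cdkn2b to Cdk4 ratios lie higher in all sgNSD3 libraries than in any sgControl library, while the Ccnd1 to Ccnd2 ratio overlaps.

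The kinase genes that D-type cyclins activate leaned in opposite directions, and neither passed the test. Cdk6 (chromosome 5, 3341004 to 3531008) had 6290.3, 6497 and 6474 normalized counts in sgControl and 6818, 6656 and 6676 in sgNSD3. All sgNSD3 libraries were above all sgControl libraries, 1.05-fold in the mean (95% interval 1.00 to 1.09; limma adjusted p = 0.153). Cdk4 (chromosome 10, 127063535 to 127067288) had 5938, 5803 and 5529 in sgControl and 5554, 5389 and 5505 in sgNSD3. Here sgControl replicate 3 fell among the sgNSD3 libraries, and the fold was 0.952 (95% interval 0.911 to 0.996; limma adjusted p = 0.158). Without sgControl replicate 3 Cdk4 passed as lower (adjusted p = 0.036). The ratio of Cdk6 to Cdk4 within a library was 1.06, 1.12 and 1.17 in sgControl and 1.23, 1.24 and 1.21 in sgNSD3, with no overlap and a 1.1-fold difference of the means (exact permutation p = 0.1, adjusted 0.15). Tspan31, whose span shares 2 bases with that of Cdk4, was lower, with a fold of 0.868 (limma adjusted p = 0.000621). The long noncoding RNA genes Gm36470 and Gm29868, which share 2556 and 19218 bases with the Cdk6 span, have no RNA values.

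The E-type cyclins, which act on CDK2 after the D-type cyclins, were not called. Ccne1 (chromosome 7, 38097984 to 38107490) had 196.4, 173.2 and 161.4 normalized counts in sgControl and 177.8, 180.3 and 191.6 in sgNSD3. Ccne2 (chromosome 4, 11190433 to 11204779) had 270.5, 351.2 and 329.8 in sgControl and 286.3, 302 and 295.2 in sgNSD3. For both genes the sgNSD3 libraries lay inside the range of the sgControl libraries. The folds were 1.03 for Ccne1 (95% interval 0.903 to 1.19; limma adjusted p = 0.806) and 0.928 for Ccne2 (0.828 to 1.05; adjusted p = 0.514). Among sgControl libraries the SD was 10.1% of the mean for Ccne1 and 13.2% for Ccne2, against counting errors of 7.44% and 5.7%. Ints8, an Integrator subunit gene, shares 5622 bases of span with Ccne2 and was not called either (fold 1.04, adjusted p = 0.487).

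Rb1 (chromosome 14, 73192858 to 73325951), which encodes the protein that these kinases phosphorylate, had 320.7, 312.9 and 343 normalized counts in sgControl and 333.8, 334.6 and 315.8 in sgNSD3. The conditions overlapped throughout, with a fold of 1.01 and a 95% interval of 0.911 to 1.12 (limma adjusted p = 0.948). Lpar6, a receptor gene whose span lies inside that of Rb1, was not called (fold 0.907, adjusted p = 0.358).

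Of the INK4 genes, Cdkn2b (chromosome 4, 89306289 to 89311032), encoding p15, was called and Cdkn2a was not. Cdkn2b had 1650.4, 1454 and 1530.5 normalized counts in sgControl and 1705, 1695 and 1722 in sgNSD3. The sgControl libraries were spread widely, with replicate 1 close to the sgNSD3 libraries, which agreed within an SD of 0.776% of their mean. The means were 1545 ± 99.2 and 1707 ± 13.2 (SD, n = 3; limma adjusted p = 0.0236), a 1.1-fold rise with a 95% interval of 1.04 to 1.18. This call held without sgControl replicate 1 (adjusted p = 0.000764), and was lost without any 1 of the 5 other libraries (adjusted p from 0.0557 to 0.154). Without sgControl replicate 2 the deposited log2 change was 0.076, against 0.107 with all libraries. Relative to Cdk4, which p15 binds, the Cdkn2b ratio was 0.278, 0.25 and 0.277 in sgControl and 0.307, 0.315 and 0.313 in sgNSD3 (exact permutation p = 0.1, adjusted 0.15).

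Cdkn2a (chromosome 4, 89274473 to 89294619) was counted in every library, at 88.79, 80.38 and 86.27 normalized counts in sgControl and 82.68, 102.6 and 86.03 in sgNSD3. The conditions overlapped, with a fold of 1.06 and a wide 95% interval of 0.872 to 1.28 (limma adjusted p = 0.767), at a counting error of 10.6% per library. The counts do not tell the ARF and p16 transcripts apart. The long noncoding RNA gene Gm12610 covers all 4744 bases of the Cdkn2b span, at means of 14.2 and 14 normalized counts. Mtap, 93.4 kb from Cdkn2a and often lost with it in tumors, was also counted throughout, at 1143 ± 18 normalized counts in sgControl and 1138 ± 37.6 in sgNSD3 (SD, n = 3; limma adjusted p = 0.952).

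**Figure D3:**
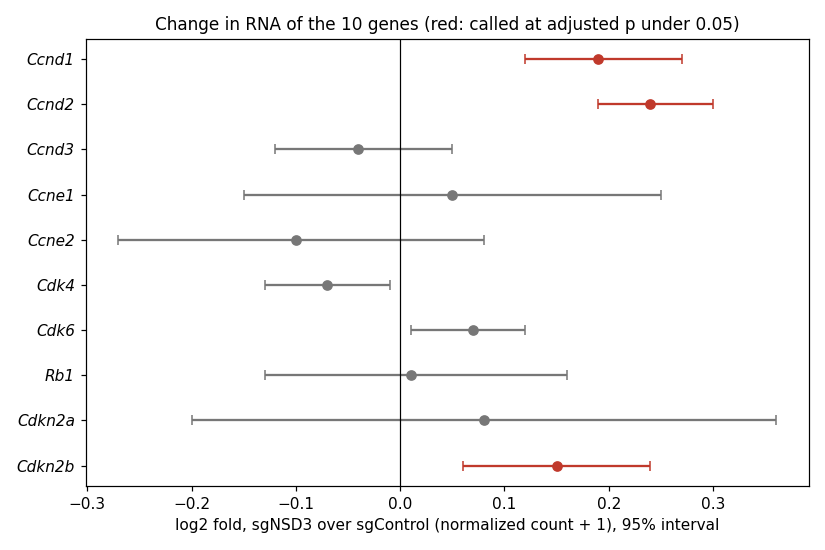
Log2 fold of RNA in libraries labelled sgNSD3 over sgControl for the 10 genes (horizontal axis, on the normalized count + 1 scale), with 95% intervals from limma over 3 libraries per condition. Ccnd1, Ccnd2 and Cdkn2b (red) were called; the intervals of Ccnd3, Ccne1, Ccne2, Rb1 and Cdkn2a include 0.

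Other genes of the pathway were counted in the same fit, where 5.44% of all tested genes rose and 6.44% fell. Among 5 further kinase inhibitors 4 passed the filter (Cdkn1c did not), 1 rose and 1 fell, with a median log2 fold of -0.08. The rise, of Cdkn2c, was lost in 5 of 11 other settings. Cdkn1a, which encodes p21, fell from 696.7, 690.9 and 687.1 normalized counts in sgControl to 550.8, 500.5 and 554.3 in sgNSD3, with no overlap and a fold of 0.774 (log2 fold -0.37 ± 0.056, SE; limma adjusted p = 4.52e-05). Cdkn2c, the INK4 gene for p18, rose 1.14-fold, from 557.8, 536.8 and 475 to 600.4, 593.5 and 589.5 (adjusted p = 0.0481). Cdkn2c passed the threshold narrowly: it passed under 6 of 11 other settings, and among the 6 fits without a library only in that without sgControl replicate 1. Cdkn1b (p27), at 959.5 ± 28.9 and 924.9 ± 31.4 normalized counts, and Cdkn2d (p19 INK4), at 223.5 ± 17.9 and 206.9 ± 19.3 (SD, n = 3), were not called (limma adjusted p = 0.539 and 0.516).

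Of 8 other G1 kinases, activators and pocket proteins 1 fell and 0 rose (median log2 fold -0.05), and with lists this short 1 call is near the 6.44% of all tested genes that fell. This was Cdc25a, the phosphatase that activates CDK2, from 814.8, 817.2 and 802.8 to 737.9, 683.7 and 718.5 normalized counts, a fold of 0.879 (limma adjusted p = 0.0136, and 0.106 without sgNSD3 replicate 2). Cdk2 was lower in every sgNSD3 library, at 1080.5 ± 45.6 and 1005 ± 10.1 normalized counts (SD, n = 3), but was not called (limma adjusted p = 0.151). Rbl2, encoding the pocket protein p130, had a fold of 1.04 (adjusted p = 0.485). Among 10 E2F and DP factors 1 fell and 0 rose (median log2 fold -0.01), again near that share. That was E2f4, a factor that works with the pocket proteins in resting cells, with a fold of 0.898 and an adjusted p of 0.0498. It passed under only 3 of 11 other settings and, of the fits without a library, only in that without sgControl replicate 2. Tfdp1 and Tfdp2, the E2F dimer partners, had folds of 0.948 and 1.05 (adjusted p = 0.189 and 0.272). Without sgControl replicate 1 Tfdp1 passed as lower (adjusted p = 0.0481). Of 9 ligase genes that turn over cyclins and inhibitors 0 were called by limma and 0 by voom. An unadjusted limma p under 0.05 was reached by 2 of them, against 4516 of all 18263 tested genes. Cul3 and Cul1, the scaffold genes with the highest counts among the 9, had limma adjusted p of 0.146 and 0.786.

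Of 25 E2F target genes 5 fell and 0 rose, where 6.44% of all tested genes fell, and the list's median log2 fold was -0.03. Without sgControl replicate 1 there were 4, without sgNSD3 replicate 1 or replicate 2 there were 2, and under quantile normalization there were 3. The 4 without sgControl replicate 1 are not all among these 5, since Mcm5 and Mcm7 were not called there. Rrm1, a subunit of ribonucleotide reductase, fell from 5814, 6029 and 5912 normalized counts to 5293, 5476 and 5360 (fold 0.908; limma adjusted p = 0.00205). Pcna, the sliding clamp of DNA polymerase, fell from 2258, 2417 and 2272 to 2022, 1975 and 2146 (fold 0.884; adjusted p = 0.00265). Mcm2, Mcm5 and Mcm7, of the replicative helicase, had folds of 0.903, 0.903 and 0.912 (adjusted p = 0.0143, 0.0322 and 0.0251), while Mcm4 and Mcm6 of the same helicase were not called, at folds of 1.01 and 0.994. Only Pcna and Rrm1 of these 5 stayed past the threshold without each library in turn. Mcm2 lost it without sgNSD3 replicate 1 or 2, Mcm7 without either of those or sgControl replicate 1, and Mcm5 without any library but sgControl replicate 3 and sgNSD3 replicate 3. Quantile normalization lost the calls of Mcm5 and Mcm7, and testing without the filter on low values lost that of Mcm5. Among 6 proliferation markers 0 were called by limma or by voom (2 reached an unadjusted limma p under 0.05, against 4516 of 18263 tested genes). Mki67, at 2983 ± 69.2 and 2934 ± 61.4 normalized counts, and Top2a, at 4491 ± 166 and 4309 ± 91.8 (SD, n = 3), had limma adjusted p of 0.72 and 0.269.

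**Figure D4:**
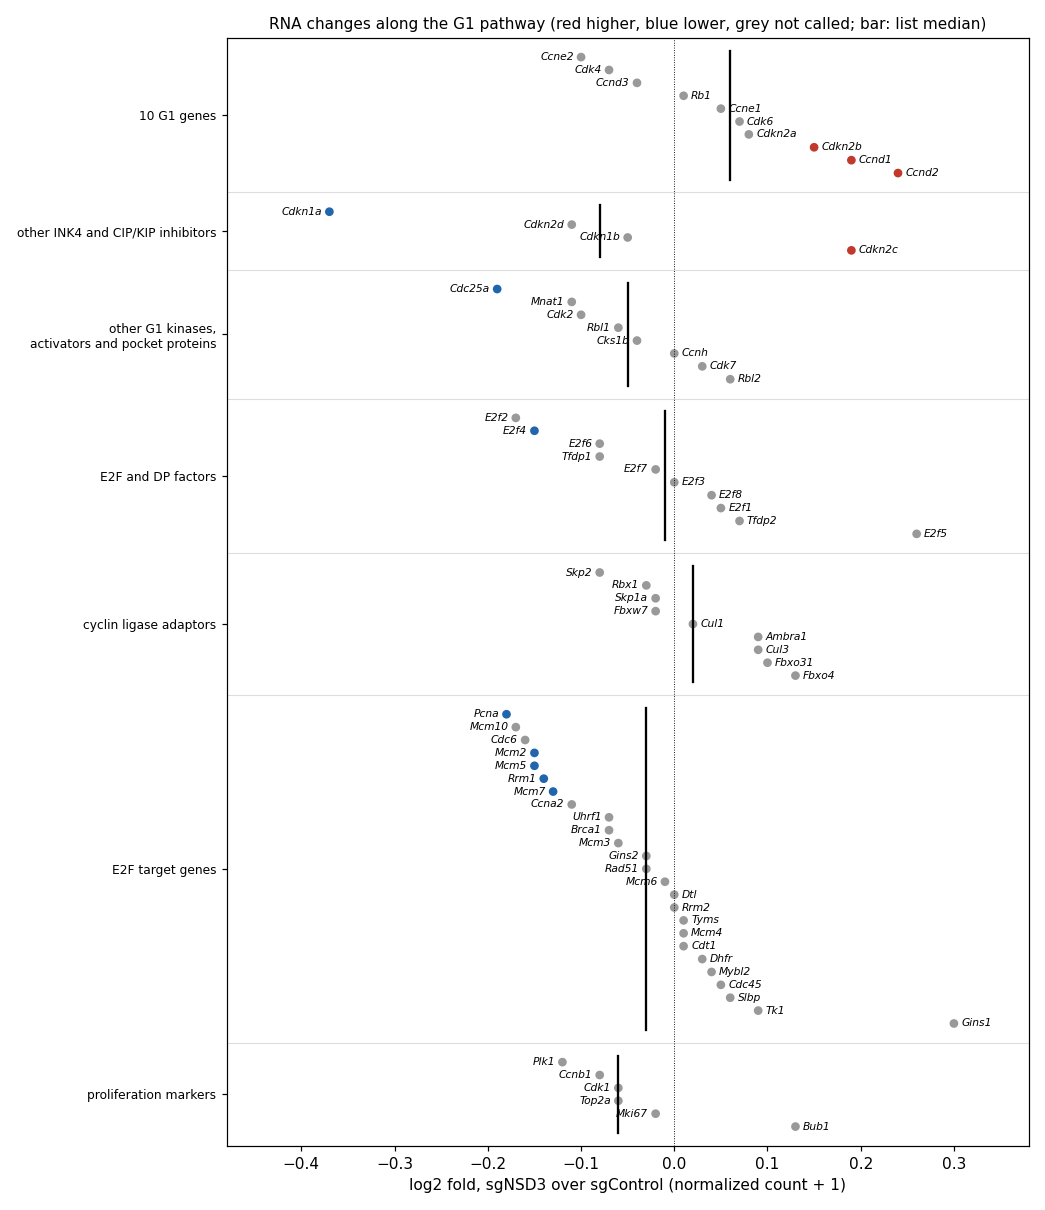
Log2 fold of RNA in libraries labelled sgNSD3 over sgControl (horizontal axis, normalized count + 1) for each tested gene of the 10 G1 genes and of 6 lists of the pathway; each point is a gene, and the black bar the median of its list. Called genes are red where higher and blue where lower: 3 rose among the 10, and 5 fell among 25 E2F targets.

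The genes that lie near the cyclin D1 and INK4 loci were looked at in the same fit, beside 5.44% of all tested genes higher and 6.44% lower. Of 10 symbols listed around Ccnd1, 5 were tested and 1 rose. LTO1 was listed only as Lto1 and Oraov1, spellings that the RNA data do not hold, so it stands outside this count. It too was called higher, as given above. The 1 in the count was Ano1, a chloride channel gene 178 kb away. Ano1 rose from 185.9, 190.4 and 216.2 normalized counts to 242.9, 264.6 and 259.1 (fold 1.29, limma adjusted p = 0.00578). Cttn and Ppfia1, farther out on the same side, were not called (folds 1.02 and 1.02; adjusted p = 0.56 and 0.733). Of 7 genes listed around Cdkn2a, 4 were tested and 1 fell, while 0 rose. It was Elavl2, a neuronal RNA-binding protein gene 1917 kb away, at 27.16, 35.41 and 18.27 normalized counts in sgControl and 8.268, 9.589 and 4.888 in sgNSD3 (limma adjusted p = 0.00054). Its sgNSD3 mean, 7.581, was below the filter of 8, so Elavl2 was tested only through its higher sgControl counts. Klhl9, 552 kb away, was not called, at a fold of 1.00 (adjusted p = 0.928).

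Without sgControl replicate 1 the calls of Nsd3, LTO1, Tspan31, Cdkn1a, Cdkn2c, Cdc25a, Pcna, Rrm1, Mcm2, Ano1 and Elavl2 were kept, with limma adjusted p from 3.87e-17 for Nsd3 to 0.027 for Mcm2. Those of E2f4 (0.163), Mcm5 (0.0747) and Mcm7 (0.0542) were lost.

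Chromatin was described from the authors' deposited table, which gives each gene body a signed score in 1 H3K27me3 column and 2 H3K36me2 columns. Neither the libraries behind a score nor their order are named, so no change between the conditions can be read from it, and no test was made. What a signed score measures is not stated, so an amount of the mark cannot be read from it either. Low and high below refer to the score alone. The scores of the 10 genes are set against all 22470 gene bodies by percentile, 50 being the middle.

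All 10 genes were above 0 for H3K36me2 in both columns of the authors' deposited table, as were 89.4% and 92.4% of all gene bodies. Their medians there were 0.0389 and 0.124, where the whole authors' deposited table has 0.0757 and 0.125. Ccnd3 was the only one of the 10 above the 65th percentile in both columns of the authors' deposited table, at 0.103 and 0.257 (percentiles 69.9 and 91.1). Ccnd2 was low in both, at 0.0262 and 0.0097 (percentiles 22.3 and 8.9 in the authors' deposited table). Cdk4 was also low, with 0.0132 and 0.0682 (percentiles 15.1 and 25.3 in the authors' deposited table). The E-type cyclins and Ccnd1 lay far apart in the 2 columns. In the authors' deposited table Ccne2 went from 0.0154 to 0.283 (percentiles 18.2 and 94.3), Ccne1 from 0.000604 to 0.147 (11.8 and 60.7) and Ccnd1 from 0.000606 to 0.134 (12 and 55.3). Over all gene bodies Spearman's rho between these columns of the authors' deposited table was 0.223, a description across genes, which are not independent replicates. Cdk6 (0.0813 and 0.1), Rb1 (0.09 and 0.0921) and Cdkn2a (0.0516 and 0.113) stayed between the 30th and 65th percentile of the authors' deposited table. Cdkn2b scored 0.0778 and 0.202 there (percentiles 56.1 and 81.2). Some scores in the authors' deposited table were held by many gene bodies. In the H3K36me2 columns those of Rb1 were held by 113 and 132, the first of Cdkn2a by 99 and the second of Ccne1 by 153.

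For H3K27me3 the authors' deposited table put 2 of the 10 genes above 0, Ccnd3 at 0.0895 and Cdk4 at 0.0313 (percentiles 89 and 77.9), where 31.5% of all gene bodies were above 0. Ccnd1 had the lowest score of the 10 in the authors' deposited table, at -0.0695 (percentile 20.6). The inhibitor genes Cdkn2a and Cdkn2b, which Polycomb is known to silence in many young cells, scored -0.0258 and -0.0457 in the authors' deposited table (percentiles 51.5 and 38.2). These scores do not tell how much H3K27me3 either gene carried. Ccne2 and Cdk6 also scored -0.0258, near the middle of the authors' deposited table (percentiles 50.1 and 50.5). The H3K27me3 scores of Ccne2 and Cdk6 were each held by 318 gene bodies there, and that of Ccnd1 by 156. Ccne1 (-0.0491), Ccnd2 (-0.0277) and Rb1 (-0.0119) lay at percentiles 29.1, 44.8 and 57 of the authors' deposited table.

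**Figure D5:**
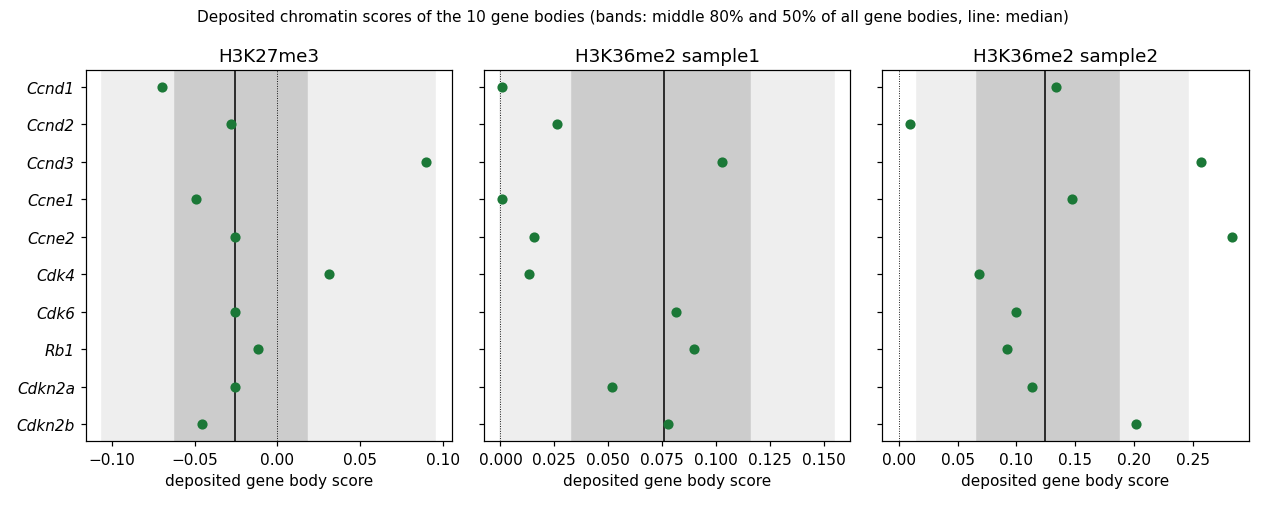
Gene body scores of the 10 genes in the authors' deposited table (horizontal axes, no unit stated), 1 panel per column; the light and dark bands hold the middle 80% and 50% of all 22470 gene bodies and the line is their median. Ccnd3 lies right of the median in all panels, and Ccnd2 lies left of it in all of them.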

How the data were processed

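RNA was measured in 3 sgControl and 3 sgNSD3 samples. The tools listed are HISAT2, featureCounts and DESeq2, and the build mm10, per the submitters' processing notes, with no versions, settings or order. The RNA values are deposited by the authors on a log2 scale, and a gene without reads sits at 8.45 in each library, as on the variance-stabilised scale of DESeq2. Inverting that transform gave the normalized counts. Each library's were multiples of its own step, and dividing by the step gave whole numbers within 0.05 for 100% of the values above 0; these are the recovered counts. The chromatin scores are signed values deposited by the authors, per the file headers 1 per gene body and mark, with no libraries named. There were 0 other value columns in the RNA table.

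Genes with a mean of at least 8 normalized counts were tested on the deposited log2 values with limma 3.58.1 in R 4.3.3 (lmFit, eBayes with a mean-variance trend), with no replicate block, and p-values were Benjamini-Hochberg adjusted over all 18263 genes with a threshold of 0.05. Folds are ratios of mean normalized counts. Log2 folds, with their SEs and 95% intervals, are limma estimates after adding a pseudocount of 1 to the normalized counts, so changes of low genes are understated. Ratios within libraries were compared with 2-sided exact permutation tests (scipy 1.17.1), and were chosen after the values were seen. A length-scaled share of the D-type cyclins had been planned, but only gene spans were at hand, so unscaled shares are given. The limma fit was tested on simulated counts. For sgNSD3 replicates 1, 2 and 3 (numbered by title) the columns bear the numbers 3, 1 and 2.

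Named genes are the 10, the called genes of each pathway list (up to 6) and up to 2 uncalled ones with the highest counts. Some of the genes sharing bases with the 10 were added after the values were seen. The 10 genes, the lists and the tests were chosen with earlier results of these data known. Alternatives covered filters, normalization, scale, test, replicate block and leaving out each library. The sources name no strand setting, and no IgG value was used.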

Additional observations from a re-analysis of the deposited data

How the results depend on the processing

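The calls of Ccnd1 and Ccnd2 kept their direction and side of the threshold under all 11 other settings and without each library in turn (adjusted p at most 0.0047 and 6.27e-05), and 110 of 110 checks of the 10 genes under the 11 settings kept side and direction. Leaving out a library moved the number of all genes called to between 641 and 993 higher and between 707 and 1164 lower, from 994 and 1176. The lowest counts came without 1 of the sgNSD3 libraries (641 to 658 higher and 707 to 774 lower). Of the 10 genes, 2 to 3 were then called higher and 0 to 1 lower, the latter being Cdk4 without sgControl replicate 3. Over all genes, the fits without sgControl replicate 1, 2 or 3 called 988, 758 and 993 higher and 1164, 938 and 1145 lower. Every fit without a library has 1 sample fewer, and the cause of these differences was not tested. Signs turned for uncalled changes near 0. The deposited log2 scale compresses changes of low genes: with all libraries Cdkn2a was at 0.02 there, against a log2 fold of 0.08. On that scale Ccne1 ranged from -0.0038 to 0.044, Rb1 from -0.0072 to 0.022 and Cdkn2a from -0.0031 to 0.036 when a library was left out. In the same fits Cul1 ranged from -0.013 to 0.044, Mcm6 from -0.027 to 0.0068, Mcm4 from -0.011 to 0.022, Klhl9 from -0.0066 to 0.025 and Mtap from -0.015 to 0.014. Quantile normalization gave 0.0056 for Mcm6 and 0.0061 for Mtap. The Ccnd1 share of D-type cyclin counts differed by -0.135 percentage points between conditions, and by -0.393 to 0.161 without a library. A share scaled by transcript length was not run, and Elavl2 has no value under the stricter filter on low values.

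Same-numbered libraries did not deviate together (r from -0.013 to 0.046 by title number and -0.066 to -0.007 by column number), and 3 and 0 of 6 libraries correlated best with their own number. The samples share only a number. With a replicate block by title number 1119 genes were higher and 1333 lower, and by column number 919 and 1086, and 3 of the 10 genes were called higher under either block. Counting error was highest for Cdkn2a, Ccne1, Ccne2 and Rb1, at 5.52% to 10.6% per library. Percentiles among gene bodies with tested RNA crossed the middle for Ccnd2 in H3K27me3 (54.4) and for Ccnd1 in the second H3K36me2 column (49.2).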
